A study of Mus musculus with 12 samples.

Results

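Tumours from mice given regorafenib together with anti-PD1 (the combination, 3 libraries) were compared with tumours from mice given anti-PD1 alone (3 libraries), over all genes. These are 6 of the 12 RNA libraries of the series. The other 6, from vehicle (3) and regorafenib alone (3), entered the same normalisation and the same model. All tumours grew from Sq-1979 cells (murine HNSCC, squamous carcinoma of the head and neck), implanted subcutaneously with Matrigel in C3H/HeN males aged 6 weeks. Treatment ran from day 20, with regorafenib at 5 mg/kg per day, and the labels name no dose for anti-PD1. The host has its own immune cells, vessels and fibroblasts, and the RNA came from whole tumour, in which fewer cells of a type and less RNA per cell cannot be told apart. The labels do not say whether the 3 libraries of a group came from separate mice, so the p-values measure the spread between these libraries, which may be technical. The question is what regorafenib adds to a tumour that already receives anti-PD1.

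Regorafenib inhibits several kinases, among them the receptors for VEGF and PDGF and members of the RAF family. Antibodies against PD1 block a receptor that restrains T cells. Much of what follows concerns genes of RNA processing. SR proteins bind exons and help to recruit the splicing machinery, CLK kinases phosphorylate SR proteins, and LUC7-like proteins belong to the U1 particle that recognises the start of an intron. Transcripts of several of these genes are known to keep introns and to stay in the nucleus.

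The 6 libraries held 22815801 to 28209036 counts, and 16974 genes had enough counts to be tested. Levels are given as CPM, a rate per library size after TMM normalisation over all 12 libraries, in the order of replicates 1, 2 and 3. Squamous identity was present in every library: Krt14, a keratin of basal squamous cells, measured 3349, 4761 and 3769.5 CPM with anti-PD1 and 3166, 2287 and 3229 with the combination, without passing the test described next (log2 fold change -0.45, adjusted p 0.2). The combination levels of Krt14 all lay below its anti-PD1 levels, as was so for 9.09% of all genes tested. Marker lists of T cells, macrophages, fibroblasts and endothelium had no member at 0 counts in all 12 libraries. Long noncoding RNA genes took 0.680% to 0.795% of the counts with anti-PD1 and 0.879% to 1.07% with the combination, and mitochondrial genes 1.16% to 1.27% and 1.31% to 1.85%. Neither pair of ranges overlapped, and 3 libraries against 3 cannot give an exact permutation p under 0.1.

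With the combination 288 genes were higher (1.7% of the genes tested) and 38 were lower (0.224%) than with anti-PD1, by edgeR's quasi-likelihood test at an adjusted p under 0.05. Of these, 102 were higher and 15 lower by at least 2-fold. The higher genes included splicing regulators, hosts of small nucleolar RNAs, carboxylesterases, leukotriene B4 receptors and mitochondrial iron carriers, and the lower genes included the imprinted gene Mest and several genes of endothelium. In all 326 the ranges of the 2 groups did not overlap, which was so for 22.1% of all genes tested (13% with the combination above and 9.09% with it below). The calls depend on a few libraries: 0 genes passed without anti-PD1 2, without anti-PD1 3 or without combination 2, where the smallest adjusted p was 0.0541, 0.0572 and 0.0655 and 2031, 2785 and 2100 genes had an unadjusted p under 0.05. There were 21 calls without combination 1, 45, 89 and 58 without vehicle 1, 2 and 3, and 209 without regorafenib 3. A fit of the 6 libraries alone called 0 genes (2764 at an unadjusted p under 0.05). With DESeq2 there were 795 higher and 365 lower genes. The direction of each of the 326 was the same in every one of these fits, which reuse the same counts. Their groups did not overlap, so leaving out a library could hardly reverse a direction, and this agreement adds no support.

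**Figure D1:**
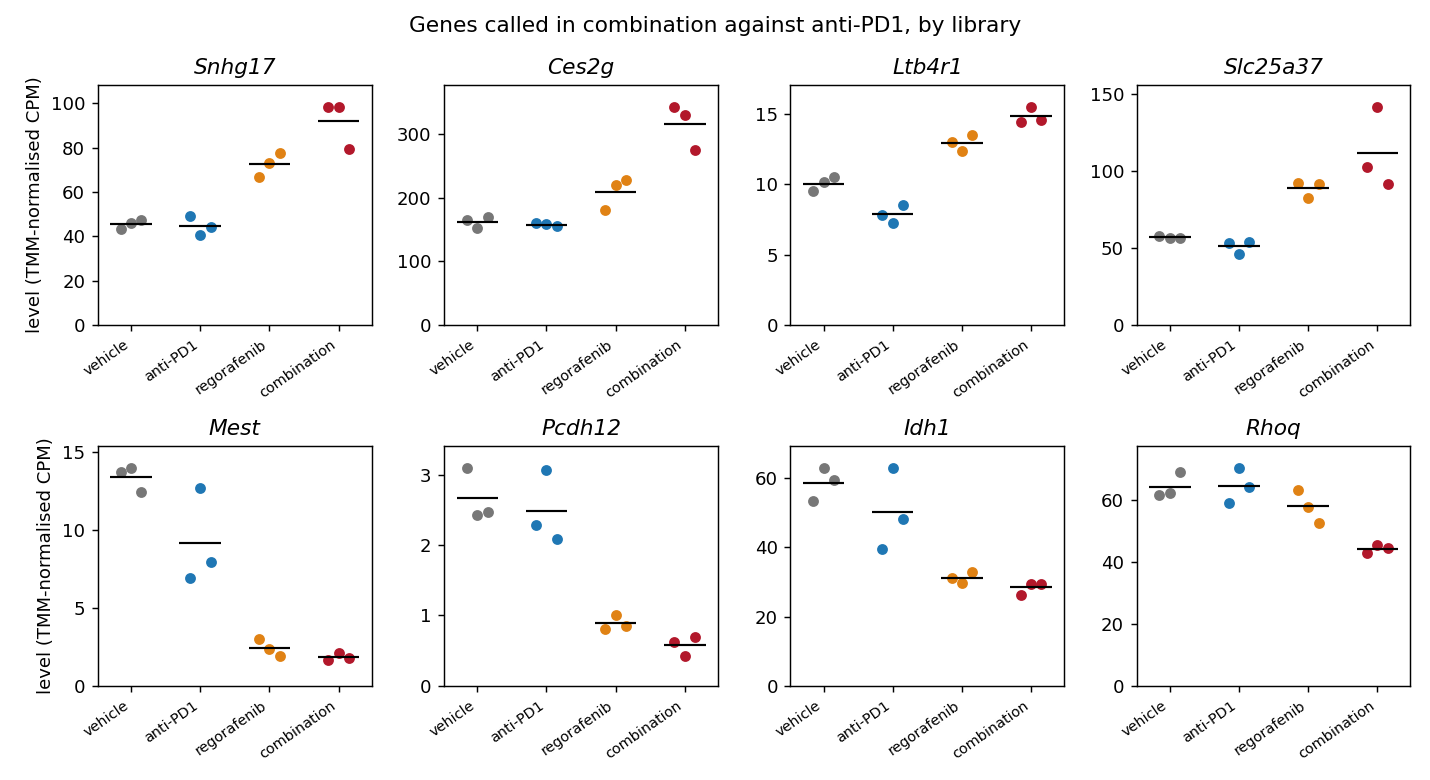
Levels in TMM-normalised CPM (linear axes from 0) of 8 genes called in the combination against anti-PD1, in each library of the 4 groups; points are libraries and bars are group means of 3. In the upper row all combination points lie above all anti-PD1 points, and in the lower row all lie below them.

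Snhg17, a noncoding host gene of small nucleolar RNAs (ENSMUSG00000085385, chromosome 2, 158353700 to 158361580, GRCm38), had the smallest p. It measured 49.05, 40.7 and 44.2 CPM with anti-PD1 and 98.5, 98.2 and 79.3 with the combination. All 3 combination libraries were above the highest anti-PD1 library, and the gene rose 2.06-fold (log2 fold change 1.04 ± 0.10, SE; adjusted p 0.00878). The list of small nucleolar RNA hosts had 17 tested genes, of which 6 rose, 0 fell and 15 were positive, with a median log2 fold change of 0.31. Over all genes tested 1.7% rose, 47.9% were positive and the median was -0.015. Long noncoding genes or genes of unsettled type were 76.6% positive with a median of 0.43. The positive signs are therefore not particular to the hosts. Beside Snhg17 the hosts that rose were Snhg15 (0.69, adjusted p 0.0159), Snhg20 (0.99, 0.0193), Snhg6 (0.47, 0.0274), Dancr (0.63, 0.0431) and Snhg5 (0.37, 0.0444). Snhg20 measured 19.98, 13.8 and 15.7 CPM with anti-PD1 and 34.4, 37.4 and 26.5 with the combination. Among annotated small nucleolar RNA genes themselves, a group formed after values were seen, all 18 tested were positive with a median of 1.12, and 2 passed, Snord72 (1.71, adjusted p 0.0377) and Snora41 (1.68, 0.0493), both near or below 1 CPM. Such RNAs carry no poly(A) tail of their own and lie within introns of their host genes. In the wider class of small RNA genes 5 of 78 tested rose and 93.6% were positive, with a median of 0.98.

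Families of splicing regulators were grouped by name after their values were seen, so their counts describe them and test nothing beyond the single genes. All 4 CLK kinases rose, where 1.7% of all genes tested rose. Clk4 measured 61.01, 51.4 and 56.1 CPM with anti-PD1 and 99.7, 102 and 78.8 with the combination (0.74 ± 0.13, adjusted p 0.0274), and Clk1 measured 120.0, 102 and 105 and 189, 191 and 142 (0.67 ± 0.14, 0.0421). Clk2 (0.51) and Clk3 (0.42) rose by less. All 3 LUC7-like genes rose as well, led by Luc7l3 with 92.8, 78.8 and 88.2 CPM and 153, 168 and 129 (0.79 ± 0.11, 0.0123). In each of these genes the third combination library was the lowest of its group and still above every anti-PD1 library.

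Of 10 tested SR genes 5 rose: Srsf11 (0.63 ± 0.08, adjusted p 0.00878), Srsf2 (0.54, 0.0259), Srsf5 (0.69, 0.0309), Srsf1 (0.48, 0.0311) and Srsf6 (0.37, 0.0383). The share that rose over all genes tested was 1.7%. Srsf11 measured 178, 155 and 169.7 CPM with anti-PD1 and 267, 276 and 237 with the combination. Srsf3, by contrast, measured 233, 255 and 252 and 237, 243 and 255 CPM, with overlapping groups (log2 fold change -0.0078, adjusted p 0.976). The SR score, the mean log2 CPM difference of the family from its anti-PD1 mean, was -0.0032, -0.029 and 0.032 with anti-PD1 and 0.32, 0.35 and 0.30 with the combination. Vehicle libraries had 0.092, 0.19 and 0.27 and regorafenib libraries 0.44, 0.28 and 0.22, so the anti-PD1 libraries were the lowest of the 4 groups.

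Other genes of the nuclear RNA machinery also rose. They include the U1 subunit gene Snrnp70 (0.68, adjusted p 0.0184), Snrnp48 of the minor spliceosome (0.76, 0.00878), the splicing factor genes Rbm25 (0.80, 0.0184), Pnn (0.60, 0.0193) and Srrm2 (0.63, 0.0217), and the cyclin L genes Ccnl1 (0.61, 0.0274) and Ccnl2 (0.87, 0.0159). The mRNA export receptor gene Nxf1 (0.55, 0.017) and Pabpn1 (0.83, 0.0316), which encodes the nuclear poly(A)-binding protein, were higher too. These genes were singled out after their values were seen. Of 13 PRPF splicing factor genes 3 rose, Prpf39 (0.68), Prpf4b (0.50) and Prpf38b (0.51). Of 20 heterogeneous nuclear ribonucleoprotein genes 2 rose, Hnrnph1 (0.49) and Hnrnpdl (0.39), where 1.7% of all genes tested rose. Of the core proteins shared by the spliceosomal particles 0 of 12 were called and 9 were negative, with a median of -0.043, near the -0.035 of all protein-coding genes tested. Cytosolic ribosomal protein genes, grouped in the same way, had 0 calls among 84 and a median of 0.0063.

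Long noncoding, small RNA and sense intronic genes were mostly positive beside these families, while 1083 pseudogenes were 47.5% positive with a median of -0.016, close to all genes tested. Of 48 tested genes annotated as sense intronic, 47 were positive (97.9%) with a median of 0.99, and 2 passed. Among 1547 long noncoding genes or genes of unsettled type, 62 rose, 0 fell and 76.6% were positive, against 44.4% of 14198 protein-coding genes, of which 212 rose and 38 fell. The nuclear RNA Malat1, looked up after the fit, measured 189, 99.4 and 145 CPM with anti-PD1 and 405, 306 and 218 with the combination and did not pass (log2 fold change 1.102, adjusted p 0.0648). Neat1, the scaffold of paraspeckles, measured 661, 389 and 573 and 1504, 1051 and 959 (1.11, 0.0546), and Firre, a nuclear RNA from the X chromosome, rose from 124, 96.7 and 104 to 211, 205 and 151 (0.80, 0.0418). Of the protein-coding genes that rose, 74.1% have an annotated isoform with a retained intron, against 56.2% of all protein-coding genes tested and 57.9% of those that fell. Genes that rose also had more annotated isoforms, with a median of 7 against 5. The counts are per gene and do not separate introns from exons, and the part of unspliced or nuclear RNA in these results was not tested.

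**Figure D2:**
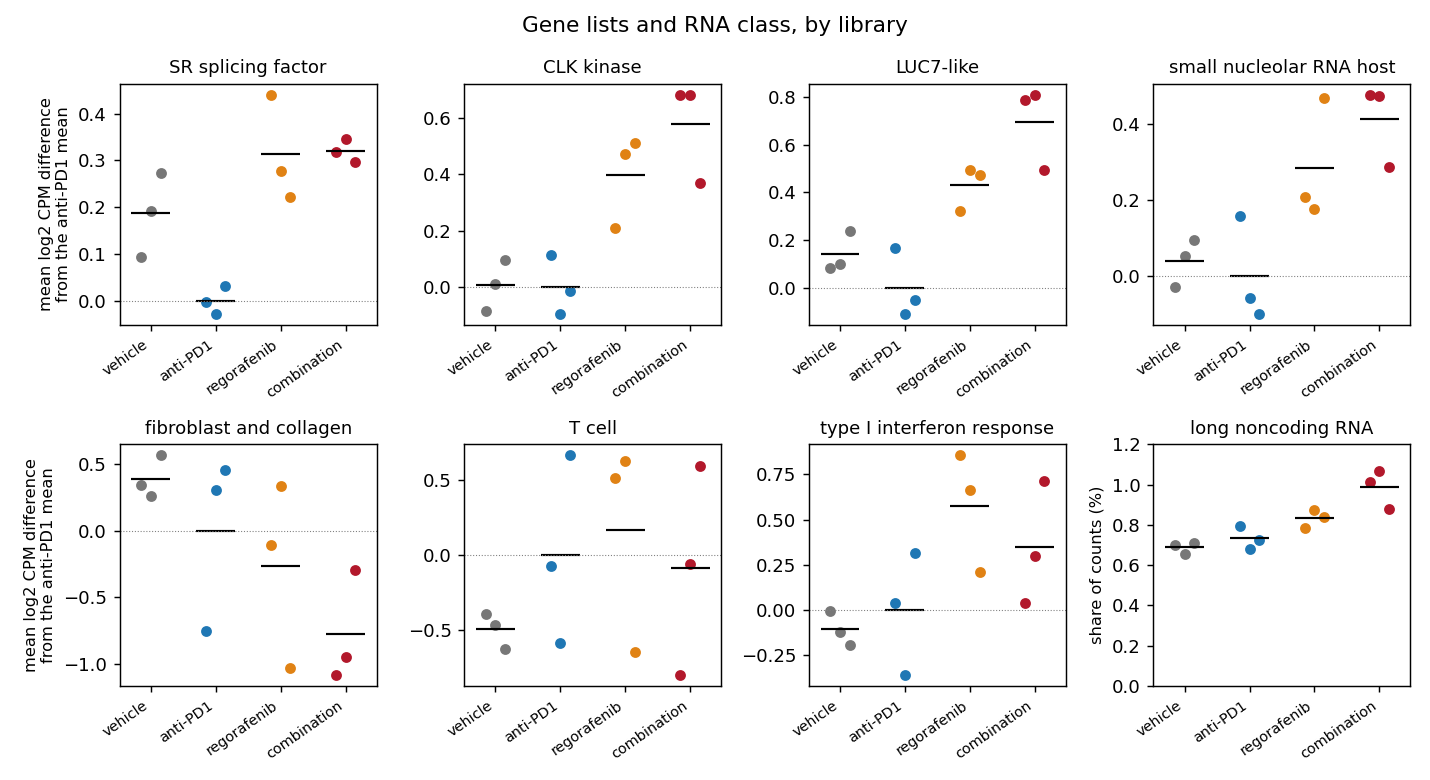
Mean log2 CPM difference from the anti-PD1 mean for 7 gene groups, and the percentage of counts in long noncoding RNA genes, in each library of the 4 groups; points are libraries and bars are means of 3. Splicing groups and long noncoding RNA lie higher in all 3 combination libraries than in any anti-PD1 library, whereas fibroblast, T cell and interferon scores spread widely within groups.

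The carboxylesterase 2 genes, which encode ester-cleaving enzymes, lie in a cluster on chromosome 8 and were grouped as a family after their values were seen. Ces2g (ENSMUSG00000031877, chromosome 8, 104961718 to 104969537) measured 160.4, 159 and 155 CPM with anti-PD1 and 343, 329.8 and 276 with the combination. It rose 2-fold (158 ± 2.55 to 316 ± 35.6 CPM, SD, n = 3; adjusted p 0.00878 by edgeR), and its anti-PD1 libraries differed by only a few CPM. Ces2e (chromosome 8, 104926260 to 104934672) rose 2.01-fold, with 35.7, 43.96 and 38.5 and 75.3, 82.1 and 80.3 CPM (adjusted p 0.0127). Ces2b rose 2.03-fold with 5.05, 7.41 and 5.998 and 11.8, 10.96 and 14.8 CPM (adjusted p 0.0302). Ces2f measured 208, 170.3 and 193 and 325, 329 and 245 CPM and did not pass (adjusted p 0.0857), and Ces2c stayed under 1 CPM in all 6 libraries. The family is a set of near copies, and reads that fit several members may have been divided among them, so the split between members is uncertain. Without anti-PD1 the gap was smaller, with regorafenib minus vehicle log2 fold changes of 0.37 for Ces2g, 0.10 for Ces2e and 0.26 for Ces2b. The interaction had unadjusted p-values of 0.00156, 0.000678 and 0.0166 and an adjusted p of 0.9998 in each, so none passed.

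The 250 bases before the start of Ces2g (chr8:104961468-104961717, plus strand) and of Ces2e (chr8:104926010-104926259, plus strand) are shown because both genes rose and lie in the same cluster. They are from RefSeq on GRCm38.p6. Capitals mark the longest run of letters that both windows share, 13 bases, which starts at position -24 from the Ces2g start and at position -34 from that of Ces2e.
Ces2g: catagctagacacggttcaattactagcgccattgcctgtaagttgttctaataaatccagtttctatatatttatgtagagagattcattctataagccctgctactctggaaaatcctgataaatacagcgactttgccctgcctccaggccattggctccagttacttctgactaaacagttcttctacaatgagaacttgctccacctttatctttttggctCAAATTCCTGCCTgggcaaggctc
Ces2e: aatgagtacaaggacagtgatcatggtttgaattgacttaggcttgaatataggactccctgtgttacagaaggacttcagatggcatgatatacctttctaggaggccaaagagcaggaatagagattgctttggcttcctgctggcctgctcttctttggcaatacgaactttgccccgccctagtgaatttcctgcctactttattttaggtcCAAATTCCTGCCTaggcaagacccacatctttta
Of 11708 tested genes with such a window, 2 hold this run on either strand, which are the pair it was taken from. The run was picked by comparing these windows, and it describes their letters without naming a site for a factor. Ces2g also shares a run of 13 bases with Ces2c, which stayed under 1 CPM and was not called, and 3 windows hold that run. A shared run of this length is therefore not particular to the genes that rose. The windows of Ces2c, Ces2e, Ces2f and Ces2g together share at most 6 letters in a row.

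Some pairs of related genes, grouped after their values were seen, rose together. Ltb4r1 (chromosome 14, 55765962 to 55768494), the high-affinity receptor for this chemoattractant lipid, measured 7.81, 7.22 and 8.55 CPM with anti-PD1 and 14.4, 15.5 and 14.6 with the combination (0.91 ± 0.11, adjusted p 0.00878). Its neighbour Ltb4r2 measured 13.96, 13.3 and 12.1 and 22.1, 21.9 and 18.04 (0.66 ± 0.12, 0.0274). The mitoferrin genes, whose proteins carry iron into mitochondria, were the other pair. Slc25a37 measured 53.5, 45.9 and 53.7 and 102, 142 and 91.4 CPM (1.13 ± 0.14, 0.00878), with combination 2 the highest, and Slc25a28 measured 80.1, 65.8 and 69.6 and 114, 116 and 101 (0.62, 0.0159). Tfr2, a transferrin receptor, fell from 2.25, 2.69 and 3.27 to 1.15, 0.870 and 0.761 CPM (-1.56, 0.0274).

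Among the 10 higher genes of smallest p with a full gene name were also Crebzf, a bZIP transcription factor (0.69), Aoc2, an amine oxidase (1.09), Plch2, a phospholipase C (0.90), the collagen gene Col11a2 (1.11) and Spaca6, a sperm protein gene (1.301), each with an adjusted p of 0.00878. Plch2 measured 107, 97.9 and 108 CPM with anti-PD1 and 213, 205 and 167 with the combination. Of the large changes, Tnnt2, the cardiac form of troponin T, measured 32.5, 25.8 and 22.5 and 131, 78.6 and 76.1 CPM (1.82 ± 0.27, adjusted p 0.0159). Atg9b, an autophagy gene, measured 26.7, 17.6 and 18.5 and 50.4, 86.1 and 48.3 (1.56, 0.0274). A3galt2, a glycosyltransferase gene (1.91), and Nwd1 (1.49) were below 10 CPM in every library of both groups. Some secreted signals rose too. Lif, a cytokine of the interleukin 6 family, rose from 42.4, 36.5 and 36.7 to 71.6, 75.8 and 85.2 CPM (1.01, 0.0184), and Clcf1, of the same family, from 7.72, 6.18 and 8.51 to 15.6, 16.2 and 14.2 (1.04, 0.0193); both were picked out after their values were seen.

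Further genes that rose, also chosen after their values were seen, cover several functions. Mdm4, a negative regulator of p53, rose from 161, 133 and 142 to 226, 254 and 209 CPM (0.66, adjusted p 0.0159), and Ogt, which adds O-linked N-acetylglucosamine to nuclear and cytosolic proteins, from 405, 318 and 309.9 to 671, 703 and 461 (0.83, 0.0389). Mafg, a small Maf transcription factor gene, rose by 0.67 on the log2 scale (0.00878), and Chka, the choline kinase at the start of phosphatidylcholine synthesis, by 0.70 (0.0103). Ptger1, a prostaglandin E2 receptor gene, rose from 3.52, 3.03 and 2.66 to 7.47, 6.86 and 6.41 CPM (1.17, 0.0157). Myh9, the heavy chain of nonmuscle myosin IIA and the most abundant of these genes, measured 985, 724 and 914 and 1827, 1573 and 1243 CPM (0.82, 0.0377). In Mdm4, Ogt, Ptger1 and Myh9 the groups did not overlap, which was so for every called gene and is not particular to them.

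Ighg3, an antibody heavy chain gene, had the largest fitted rise. It measured 0.0849, 0 and 0.251 CPM with anti-PD1 and 2.21, 7.76 and 3.04 with the combination (adjusted p 0.0159). Anti-PD1 2 held 0 counts, so its fitted log2 fold change of 5.18 ± 0.77 depends on the prior count. Across the B and plasma cell list 1 of 16 genes passed (Ighg3), where 1.92% of all genes tested passed. In that list 10 were positive and the median was 0.82. The list score was 0.075, -1.04 and 0.97 with anti-PD1 and 1.52, 0.68 and 1.403 with the combination. In a fit of protein-coding genes only the median was -0.059. Antibody genes such as Ighg3 and Ighg2b were not in that fit, so its median covers a different set. Igkc, a light chain gene, measured 12.7, 1.07 and 41.2 and 169, 36.9 and 63.03 CPM and did not pass (adjusted p 0.261).

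The 38 lower genes were led by Mest (ENSMUSG00000051855, chromosome 6, 30723547 to 30748465), an imprinted gene of mesodermal tissue. Mest measured 6.92, 12.7 and 7.94 CPM with anti-PD1 and 1.64, 2.12 and 1.81 with the combination (-2.302 ± 0.25, adjusted p 0.00878). Of its 3945 exonic bases 912 overlap Copg2, which is read from the other strand, and the strand setting of the counting is not given. The imprinted list had 1 call, Mest, with 15 of 19 negative and a median of -0.61, where 0.224% of all genes tested fell. Nell2, a secreted glycoprotein gene, measured 0.424, 2.15 and 1.51 CPM with anti-PD1, and with the combination 2 libraries were at 0 and the third at 0.0724 (adjusted p 0.0218; the fitted fold depends on the prior count). H2-M5, a nonclassical MHC class I gene, fell from 1.23, 2.23 and 3.77 to 0.0884, 0.209 and 0.254 CPM, a few counts per combination library (-3.65 ± 0.53, 0.0159).

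Several lower genes belong to vessels. Pcdh12, a protocadherin of endothelial cells, fell from 2.29, 3.07 and 2.08 CPM to 0.619, 0.418 and 0.688 (-2.105 ± 0.26, adjusted p 0.00878). Gpihbp1, which anchors lipoprotein lipase on capillaries, fell from 12.1, 10.7 and 8.33 to 3.58, 2.65 and 4.78 (-1.499 ± 0.29, 0.034). In the VEGF and tip cell list the basement membrane gene Nid2 fell from 17.9, 36.3 and 32.4 to 9.15, 8.701 and 8.98 CPM (-1.69, 0.0423) and the potassium channel subunit gene Kcne3 from 2.800, 3.57 and 2.95 to 1.502, 0.766 and 1.09 (-1.48, 0.0434). Of the 24 tested genes of that list these 2 fell and 0 rose, where 0.224% of all genes tested fell and 1.7% rose. By sign 15 were negative and 9 positive, with a median of -0.24. Bcl6b (-1.48, 0.0388) and Apold1 (-1.15, 0.0336), both known from endothelium and noted after their values were seen, fell too.

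Most of the endothelial list did not pass: 2 of 32 genes fell (Pcdh12 and Gpihbp1), where 0.224% of all genes tested fell. In this list 21 were negative and the median was -0.20. That median was 0.012 without combination 1 and -0.39 without combination 3. Pecam1, a general endothelial marker, measured 29.4, 27.3 and 37.9 CPM and 17.6, 28.8 and 35.3 (-0.21, adjusted p 0.676), and Kdr, which encodes VEGF receptor 2, 10.9, 13.01 and 23.1 and 6.805, 9.19 and 15.9 (-0.56, 0.476). Both pairs of groups overlapped. Among 14 pericyte genes 10 were negative and 0 passed, with Pdgfrb at 67.4, 136 and 172 and 74.1, 57.8 and 109.8 CPM (-0.63, 0.457). The genes that encode kinases inhibited by regorafenib had 0 calls among 17 and a median of -0.24.

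Genes of metabolism and of cell structure were also among the lower set. Idh1, the cytosolic isocitrate dehydrogenase, fell from 39.7, 63.1 and 48.3 to 26.2, 29.5 and 29.6 CPM (-0.83 ± 0.14, adjusted p 0.0259). Rhoq, a small GTPase gene, fell from 59.2, 70.5 and 64.3 to 42.9, 45.4 and 44.4 (-0.55 ± 0.09, 0.0197), and Snx7, a sorting nexin gene, from 20.6, 24.4 and 23.2 to 13.5, 13.4 and 16.3 (-0.65, 0.0218). H3f3a, which encodes histone H3.3, fell from 278, 313 and 282 to 223, 189.9 and 214 (-0.48, 0.0259), and its near-identical copies make the count uncertain. Of 20 genes for the proton pump of lysosomes, a family grouped after values were seen, 2 fell, Atp6v1e1 (-0.40, 0.0265) and Atp6v0d1 (-0.48, 0.0311), and 16 were negative. In the list of sterol and fatty acid synthesis 2 of 33 fell, Idh1 and the sterol isomerase gene Ebp (-0.52, 0.0438). The sterol list had 24 negative and a median of -0.18. For both sets the share that fell over all genes tested was 0.224%. Jund, an AP-1 gene on the list of immediate early genes, fell (-0.61, 0.0311) while that list as a whole had a median of 0.009. Other lower genes, chosen after their values were seen, were Wee1, a kinase that delays mitosis (-0.51, 0.0341), Hadha of mitochondrial fatty acid oxidation (-0.33, 0.0434), Slc25a11, the mitochondrial carrier of oxoglutarate and malate (-0.32, 0.034), and Sec23a, a coat protein of vesicles that leave the endoplasmic reticulum (-0.39, 0.0414). Adgrl2, an adhesion receptor gene, fell from 12.05, 12.7 and 12.3 to 6.19, 4.803 and 7.24 CPM (-1.02, 0.0274).

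Genes of fibroblasts and matrix were mostly lower in sign but seldom passed, where 0.224% of all genes tested fell. Of 29 fibroblast and collagen genes 26 were negative, with a median of -0.73, and 1 passed: Col8a2, which fell from 2.08, 6.03 and 3.16 to 0.309, 0.975 and 0.399 CPM (-2.71 ± 0.49, adjusted p 0.0274). Col1a1 measured 2411, 11459 and 13089.6 CPM with anti-PD1 and 2278, 1689.6 and 4966 with the combination (-1.59, 0.261). Of 12 small leucine-rich proteoglycans 11 were negative with a median of -1.17 and 0 passed; Lum measured 48.2, 279 and 267 and 24.8, 27.6 and 55.4 CPM (-2.46, 0.0891). Anti-PD1 1 stood apart from the other anti-PD1 libraries in these genes. The fibroblast score was -0.75, 0.30 and 0.45 with anti-PD1 and -1.08, -0.95 and -0.29 with the combination, and without anti-PD1 1 the list median was -0.99. The hosts were male, and the score of 4 Y-linked genes was -0.55, -0.018 and 0.56 with anti-PD1 and -0.75, -0.48 and 0.25 with the combination. Its part in the result was not tested.

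Output genes of the ERK pathway, which includes RAF, were mainly positive, and few passed. In the list of ERK feedback and output 20 of 27 were positive with a median of 0.36. Of these 27, 1 passed, where 1.92% of all genes tested passed. Spred3, an inhibitor of RAS signalling, rose from 1.91, 2.303 and 2.44 to 4.82, 5.71 and 4.96 CPM (1.22 ± 0.26, adjusted p 0.0434). Spry4, another feedback inhibitor, measured 2.38, 3.19 and 2.26 and 1.46, 0.870 and 0.978 CPM in the opposite direction and did not pass (-1.25, 0.0542). The phosphatase gene Dusp6 measured 103, 134 and 144 and 179, 208 and 179 (0.57, 0.0856), and the transcription factor gene Etv4 8.23, 14.2 and 12.2 and 25.4, 59.6 and 27.2 (1.69, 0.125).

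Type I interferon response genes were positive in 37 of 38 cases with a median of 0.32. Of these 38, 1 passed, where 1.92% of all genes tested passed. Oas1b, a member of the oligoadenylate synthetase family annotated as a polymorphic pseudogene (chromosome 5, 120812635 to 120824163), rose from 37.9, 28.1 and 38.8 to 56.8, 73.1 and 63.5 CPM (0.89 ± 0.13, adjusted p 0.0159). Its relatives Oas2 (1.06, 0.0662) and Oas3 (0.70, 0.0901) did not pass. Oas3 measured 204, 129 and 203 CPM with anti-PD1 and 244, 273 and 353 with the combination. Every combination library was above every anti-PD1 library, as was so for 13% of all genes tested. The list score overlapped between groups, with 0.041, -0.36 and 0.32 and 0.037, 0.30 and 0.71, and the median was 0.092 without combination 3 and 0.52 without combination 1.

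The promoter of Oas3 is shown for the element through which interferon acts on such genes. The 134 bases below (chr5:120777662-120777795, minus strand, RefSeq on GRCm38.p6) lie before the start of the gene, and capitals mark a match to the interferon-stimulated response element, searched on both strands as GAAA, any 2 bases and GAAA. The match starts at position -75 from the RefSeq start, and the printed run ends 2 bases short of position -1, since GENCODE starts the exon there.
Oas3: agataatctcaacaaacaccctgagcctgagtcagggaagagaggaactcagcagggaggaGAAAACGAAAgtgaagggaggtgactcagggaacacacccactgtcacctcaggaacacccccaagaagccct
Matches were found in the 250 bases before the start of 12 of the 27 interferon list genes with a window (44.4%), against 2.8% of all 11708 genes with one. Of the genes called higher 5 of 191 had one (2.62%), and of those called lower 2 of 27 (7.41%). A match describes the letters of the window and shows no binding.

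Immune genes of the panel did not pass in either direction. Of the panel of 16 genes chosen for immune cells, vessels, stroma, division and the tumour itself, 0 passed. Cd8a measured 24.8, 15.4 and 30.3 CPM with anti-PD1 and 12.1, 22.5 and 38.1 with the combination (0.045, adjusted p 0.966). Cd274, which encodes PD-L1, measured 226, 77.5 and 162 and 137, 155 and 178 (0.015, 0.988), and Pdcd1 13.6, 6.26 and 16.7 and 5.88, 8.005 and 16.9 (-0.25, 0.803). Levels of Gzmb (-0.23, 0.882), Prf1 (0.50, 0.51), Ifng (0.21, 0.868), Foxp3 (0.21, 0.879), Cxcl9 (-0.13, 0.93), Csf1r (-0.44, 0.626) and Arg1 (0.38, 0.848) overlapped between groups as well. The proliferation gene Mki67 measured 323, 298 and 324 and 245, 405 and 397 CPM (0.15, 0.817). The log2 fold change of Arg1 had a standard error of 0.82 and that of Gzmb 0.61, so the width of these estimates, and no absence of change, is what the test shows.

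The scores of these immune lists, except that of neutrophil genes, overlapped between the groups and spread within them. T cell scores were -0.074, -0.59 and 0.66 with anti-PD1 and -0.80, -0.061 and 0.59 with the combination, so anti-PD1 3 and combination 3 were high and anti-PD1 2 and combination 1 low. The T cell list had a median of -0.081, which was -0.50 without combination 3 and 0.29 without anti-PD1 3, and 0 of 24 passed. Medians were 0.21 for cytotoxic effectors, -0.26 for NK cells, 0.0084 for macrophages, 0.022 for dendritic cells and -0.029 for the interferon gamma response, with 0 calls in each. The signs of these medians depend on single libraries as well. Without combination 3 they were -0.30 for cytotoxic effectors, -0.71 for NK cells, -0.50 for macrophages and -0.52 for dendritic cells, and without anti-PD1 3 they were 0.46, 0.19, 0.41 and 0.42. The interferon gamma median was -0.24 without anti-PD1 2 and 0.13 without anti-PD1 3. Neutrophil genes had the largest median of these lists, 1.04 (0.69 if anti-PD1 2 is left out and 1.35 if anti-PD1 3 is), with 17 of 21 positive and 0 calls. Neutrophil scores were 0.089, -0.67 and 0.58 with anti-PD1 and 0.92, 0.98 and 1.19 with the combination, without overlap. Clec4d, a lectin receptor of neutrophils and other myeloid cells, measured 0.339, 0.154 and 0.862 CPM with anti-PD1 and 2.17, 2.37 and 2.39 with the combination (2.33, 0.0516). In the chemokine list 1 of 51 rose, Ccl25 (0.70, 0.0302), where 1.7% of all genes tested rose. Of that list 28 were positive and 23 negative, with a median of 0.14.

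Regorafenib against vehicle, which shares no library with the comparison above, gives the same drug without anti-PD1. There 1 gene passed, Mest (0.00589% of the genes tested), with 2398 at an unadjusted p under 0.05. Of the 288 genes that rose with the combination, 282 were also positive there, and all 38 that fell were negative, against 72.6% of all genes with the same sign in both comparisons. Across genes the log2 fold changes had a Pearson correlation of 0.57 and a Spearman correlation of 0.56, as a description over genes that are not independent. Genes that rose had a median of 0.76 with anti-PD1 and 0.40 without, and genes that fell -0.63 and -0.37. In 309 of the 320 genes of the same sign the change was the larger one with anti-PD1; the genes were selected on that comparison, so this count is a description.

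Levels of single genes without anti-PD1 were set beside those with it. Mest measured 13.8, 14.02 and 12.4 CPM with vehicle and 3.002, 2.37 and 1.92 with regorafenib (log2 fold change -2.46, adjusted p 0.0203), against -2.302 with anti-PD1. Snhg17 measured 43.5, 46.2 and 47.6 and 66.7, 73.1 and 77.8 CPM (0.66 against 1.04 with anti-PD1). Idh1 measured 53.4, 62.9 and 59.4 and 31.1, 29.8 and 32.8 (-0.91 against -0.83), and Pcdh12 3.104, 2.43 and 2.47 and 0.803, 1.01 and 0.849 (-1.58 against -2.105). Oas1b measured 32.5, 31.6 and 28.3 and 62.8, 64.7 and 57.96 (1.01 against 0.89). Of these genes Mest alone passed in regorafenib against vehicle. Clk4 had 0.61, Srsf11 0.25, Luc7l3 0.35 and Slc25a37 0.65 without anti-PD1, each positive and smaller than with it. Lif measured 40.2, 47.8 and 42.5 CPM with vehicle and 78.2, 48.1 and 64.3 with regorafenib (0.55 against 1.01).

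**Figure D3:**
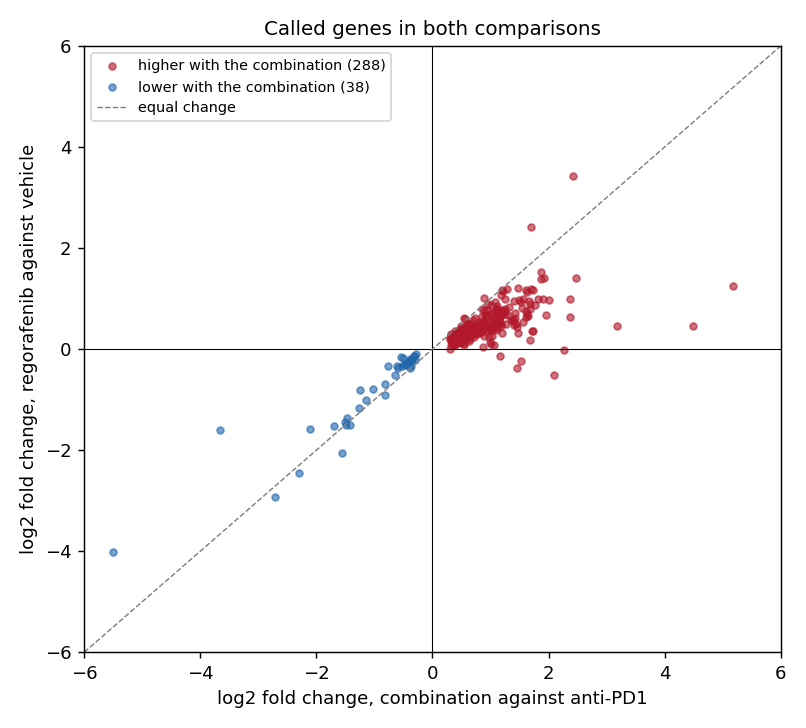
Log2 fold change of the 326 called genes in the combination against anti-PD1 (horizontal) and in regorafenib against vehicle (vertical), with 288 higher genes in red, 38 lower genes in blue and a dashed line of equal change. Nearly all points lie in the quadrants of the same sign, 282 of the higher and 38 of the lower genes.

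The interaction, which tests whether regorafenib changed a gene by different amounts with and without anti-PD1, called 0 genes by edgeR and 0 by DESeq2, with 449 at an unadjusted p under 0.05 by edgeR, 96 of them among the 326. A gene called in one comparison and not in the other is therefore not shown to differ between them. Some gene lists had close medians in both settings and others did not. Fibroblast genes (-0.73 with anti-PD1, -0.55 without), proteoglycans (-1.17, -0.93), pericytes (-0.40, -0.50) and neutrophils (1.04, 1.02) were of the former kind. T cell (-0.081, 0.87), NK cell (-0.26, 0.99), checkpoint (-0.015, 0.85) and interferon gamma genes (-0.029, 0.59) had medians near or below 0 with anti-PD1 and positive medians without. The sign of these medians with anti-PD1, and the size of the contrast, depend on library anti-PD1 3. With that library left out they were 0.29, 0.19, 0.33 and 0.13, each positive and still below its median in regorafenib against vehicle. No gene of these lists passed the interaction, and regorafenib 3 had a T cell score of -0.65 against 0.51 and 0.62 in regorafenib 1 and 2.

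**Figure D4:**
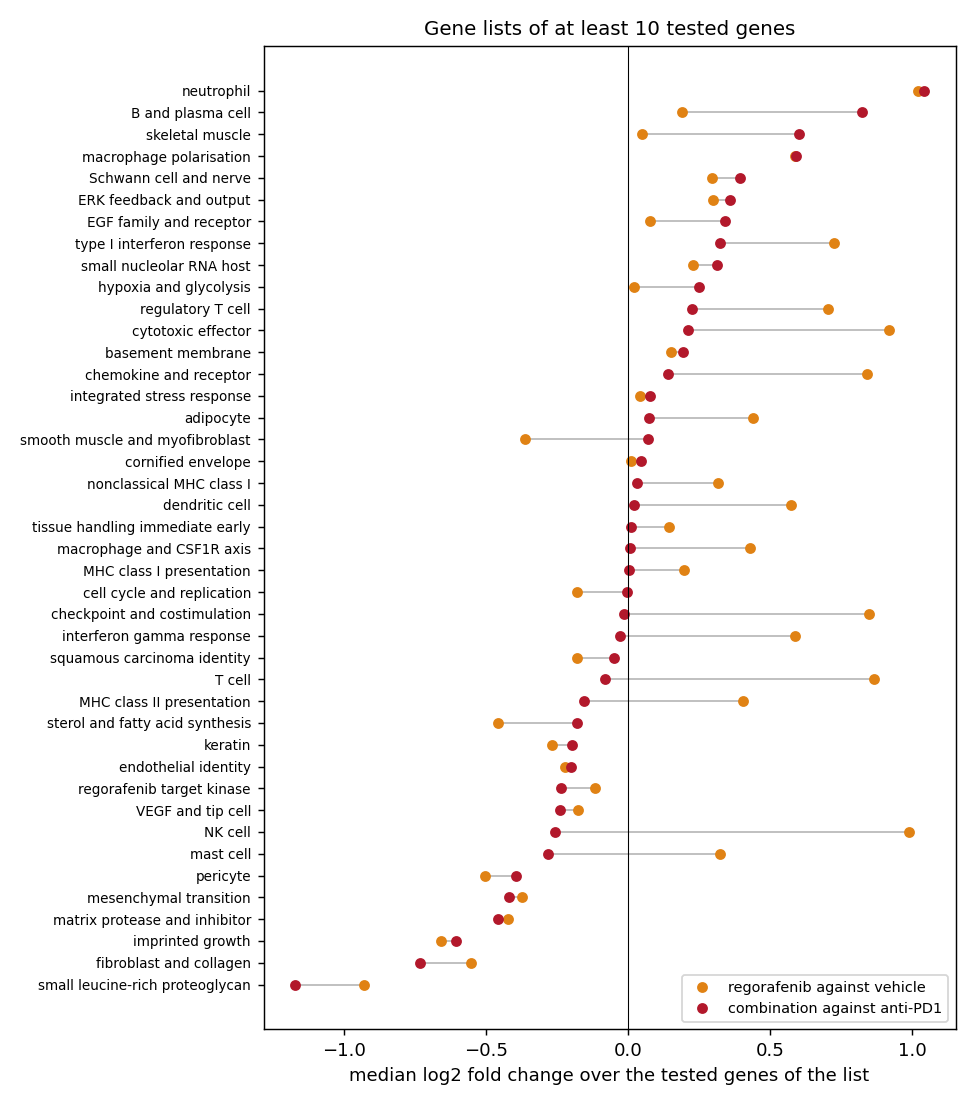
Median log2 fold change of 42 gene lists with at least 10 tested genes, in the combination against anti-PD1 (red) and in regorafenib against vehicle (orange), with a line joining the 2 values of a list. Medians had the same sign in both for 22 positive and 13 negative lists, and long lines include those of T cell, NK cell and checkpoint genes, near or below 0 with anti-PD1, and of B and plasma cell genes.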

How the data were processed

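RNA was total RNA of tumour tissue, and libraries were made from poly(A) RNA with a stranded kit, per the labels' protocols. The authors deposited a table of raw counts per gene, 55487 identifiers in 12 libraries, made with cutadapt 2.4, STAR 2.7.2a and GRCm38, per the submitters' processing notes; the counting tool and its strand setting are not given in the sources used here. Gene names and positions came from GENCODE annotation of GRCm38, and promoter windows from RefSeq.

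Counts were fitted with edgeR 4.0.16 in R 4.3.3: TMM factors over all 12 libraries, filterByExpr with a minimum count of 10 and a total of 15, 4 group means, and the robust quasi-likelihood test with Benjamini-Hochberg adjustment over all 16974 genes tested. A gene is called at an adjusted p under 0.05, and rose, fell or changed refers to called genes. Each SE of a log2 fold change was derived from the test, as its absolute value divided by the square root of the F statistic. The replicates differed by more than sampling noise. Alternatives were DESeq2 1.42.0, RLE factors, no filter, protein-coding genes only, the 6 libraries alone, a replicate block and each library left out. On simulated counts for this comparison, over 16707 genes, the test recovered 14% of 1.5-fold, 40% of 2-fold, 80% of 3-fold and 88% of 5-fold changes. The simulated counts were drawn independently, with the spread typical of each expression level and no variation shared by the genes of a library. These shares therefore describe a simpler setting than the real libraries.

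Genes were named by rule: of the called genes with a full name, the 10 higher and 10 lower of smallest p and the 5 higher and 5 lower of largest fold with a mean of at least 1 CPM, called members and up to 4 of smallest p in each list described, and a panel of 16. Other genes and gene families are marked where they were chosen after their values were seen. The comparison and the gene lists were chosen with earlier results of these data known.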

Additional observations from a re-analysis of the deposited data

How the results depend on the processing

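The number of called genes moved with the processing. Against 326 calls, DESeq2 gave 1160, the 6 libraries alone 0, a replicate block 0 (2602 genes at an unadjusted p under 0.05) and the fits without 1 library 0 to 432. RLE factors gave 309, no filter 221 and protein-coding genes only 246. Same-numbered libraries had correlations of deviations of 0.26, -0.16 and 0.63. With 3 libraries per group these values cannot decide whether the numbers pair the samples. In regorafenib against vehicle, against 1 call, DESeq2 gave 386, no filter 6, the replicate block 0 and the fits without 1 library 0 to 4. Members of the gene lists that were called numbered 22, against 74 with DESeq2, 0 with the 6 libraries alone, 0 with the replicate block, 12 with protein-coding genes only and 0 to 27 without 1 library. The share of called genes with the same sign without anti-PD1 was 98.2%, against 100% with no filter, 99.6% with protein-coding genes only and 93.9% to 100% without 1 library. The interaction had 0 calls in every fit that could give it. Of the 27 genes named by rule for this comparison, DESeq2 and RLE factors called 27, no filter and protein-coding genes only 25, the 6 libraries alone and the replicate block 0, and the fits without 1 library 0 to 27 (0 without anti-PD1 2, anti-PD1 3 or combination 2, 11 without combination 1, 16, 22 and 17 without vehicle 1, 2 and 3). The 326 genes kept their sign in every setting that tested them, and 0 of them kept their call in all 12 fits without 1 library. The sign was nearly fixed in advance, since the settings reuse the same libraries and the groups did not overlap in these genes. Under the fit of protein-coding genes the median of small nucleolar RNA hosts was -0.014, since the noncoding hosts were not in it, and small nucleolar RNA genes gave no value there. Leaving out 1 library changed the sign of the medians of the endothelial, T cell, regulatory T cell, NK, cytotoxic, macrophage, dendritic, checkpoint, chemokine, interferon gamma, MHC, EGF family, cell cycle, skeletal muscle, Y-linked, immediate early and ribosomal protein lists, among others, so these medians have no stable direction. Of the called genes 42.6% share exonic bases with another gene, against 34.6% of all genes tested, and reads of such pairs may be divided between them. Nell2, H2-M5 and Ighg3 had under 0.3 CPM in every library of 1 of the groups, where depth limits the fitted fold.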

Other observations

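Genes of hypoxia and glycolysis were positive in 25 of 30 cases with a median log2 fold change of 0.25 (0.021 in regorafenib against vehicle), and 0 passed. The list score was 0.13, 0.088 and -0.22 with anti-PD1 and 0.74, 0.25 and -0.004 with the combination, and the median was 0.051 without combination 1. Vegfa, the main endothelial growth factor, measured 86.9, 68.3 and 58.1 CPM with anti-PD1 and 234, 146 and 112 with the combination (1.21, adjusted p 0.0937 by edgeR). Every combination library was above every anti-PD1 library for this gene, as was so for 13% of all genes tested. The glycolytic enzyme gene Hk2 measured 84.01, 86.5 and 69.6 and 165, 111 and 116 (0.71, 0.101). Among ligands and receptors of the EGF family 9 of 14 were positive and 0 passed (a median of 0.34, and -0.0028 without combination 2), with the ligand gene Hbegf at 4.62, 5.84 and 5.06 and 14.3, 15.4 and 13.7 CPM (1.48, 0.0609). The stromelysin gene Mmp3 measured 73.1, 29.6 and 58.3 and 164, 214 and 163 (1.75, 0.0558), whereas 21 of 28 matrix proteases and inhibitors were negative. The neutrophil chemokine gene Cxcl2 measured 0.382, 0.614 and 0.754 and 4.51, 2.47 and 1.45 (2.24, 0.0966), and Ptgs2, a prostaglandin synthase, 2.67, 2.88 and 4.31 and 10.2, 14.5 and 6.81 (1.67, 0.118).

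In the basement membrane list Agrn, which encodes agrin, rose from 375, 316 and 349.5 to 522, 489 and 449.8 CPM (0.49, 0.042), while Nid2 fell. Proteasome subunit genes were negative in 44 of 48 cases with a median of -0.12, and subunits of respiratory complex I in 36 of 47 with -0.12; 0 passed in either, and these families were grouped after values were seen. All 7 tested protein genes of the mitochondrial genome were positive, with a median of 0.37, and 0 passed. Skeletal muscle genes had 17 of 19 positive and 0 calls (a median of 0.60, and -0.21 without combination 3), with Ttn, the titin gene, at 10.99, 6.104 and 13.9 and 7.07, 18.1 and 43.2 CPM, highest in combination 3. Genes of the cell cycle were balanced, with 20 of 40 positive and 0 calls.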
